A study of Mus musculus with 12 samples.

Results

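The core autophagy and mitophagy genes are 39 genes, named by symbol, that build the autophagosome, load its cargo or mark mitochondria for it. All 39 were found, each on 1 row, among the 55401 gene rows of the count table of each comparison, and their symbols were the only criterion. Tumor-associated macrophages (TAMs) had been sorted as CD45+CD11b+Ly6C-Ly6G-F4/80+ cells from subcutaneous tumors of B16-F10, a mouse melanoma line, and sequenced in bulk. The 12 libraries fell into 4 groups of 3. WT TAMs came from AMPKfl/fl mice, which carry the floxed allele of AMPK and for which the labels name no Cre, and AMPK-KO TAMs from AMPKfl/flLyz2cre/cre mice, both at day 15 per the study's methods. Early-stage TAMs (day 8) and late-stage TAMs (day 15) came from mice whose genotype is given as WT only, in a second table that shares no library with the first. Per the methods the mice were C57BL/6 and 5 weeks old, and no group is labelled as treated. Cre sits in the Lyz2 (LysM) locus and is active in myeloid cells in general, not in TAMs alone, and the genotype label of AMPK-KO replicates 2 and 3 reads Lyz3cre and Lyz4cre where their titles read Lyz2cre. Nothing says that the 3 samples of a group came from separate animals, so p-values measure the spread between these samples, which may be technical.

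Autophagy wraps part of the cytoplasm in a growing double membrane and delivers it to the lysosome. The ULK1 complex starts the process, the class III PI3K complex makes the lipid signal that marks the membrane, and ubiquitin-like conjugation then prepares the membrane to take up cargo, which receptors bring to it. Mitophagy is the same process directed at mitochondria, through the kinase PINK1 or through receptors on the outer membrane such as BNIP3L and FUNDC1. AMPK, the kinase that senses low cellular energy, is known to phosphorylate ULK1 and Beclin 1, a control that acts on the proteins and need not appear in transcript levels.

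Library totals ranged from 71019494 to 84470374 counts. Every member had at least 432 counts in every library, so all 39 passed the filter on low counts in both comparisons and none of the results below rests on a value near 0. Prkaa1, which encodes the AMPKα1 subunit, was at 65.0 ± 3.34 CPM (counts scaled to library size; SD, n = 3) in WT and 42.9 ± 3.53 CPM in AMPK-KO libraries (-0.60 on the log2 scale, SE 0.07, adjusted p = 2.3e-04 in edgeR's quasi-likelihood test). Lyz2 itself was low in the WT libraries (671 to 975 counts) as well as in the AMPK-KO libraries (676 to 1088), against 88212 to 249165 counts in the early-stage and late-stage libraries, although the labels give a Cre allele to the AMPK-KO group only. The 4 Y-linked genes examined summed to 3435 to 4035 counts in the early-stage and to 0 to 4 in the late-stage libraries (9229 to 12183 in the first table), so that sex and day cannot be told apart in that comparison. The methods name female mice, which goes against the Y-linked counts of the WT, AMPK-KO and early-stage libraries. Macrophage markers summed to 13812 to 14923 CPM in WT and 13733 to 13873 in AMPK-KO libraries (3 of 9 markers higher, 2 lower). Their sum was 10734 to 12631 CPM in early-stage and 13332 to 13390 in late-stage libraries, without overlap (1 of 9 higher, 1 lower). Markers of other cells also moved with the groups. In AMPK-KO against WT TAMs the melanoma marker sum went from 880 to 888 down to 586 to 618 CPM (5 of 5 markers lower), that of conventional dendritic cells from 42.7 to 48.2 up to 83.2 to 85.8 (5 of 5 higher), and that of T cells from 76.5 to 91.5 up to 148 to 156 (5 of 6 higher). The sums of NK cells (29.7 to 32.8 against 73.8 to 75.6 CPM, 5 of 5 higher), fibroblasts (568 to 614 against 736 to 817, 4 of 4 higher), endothelial cells (49.6 to 57.7 against 116 to 119, 2 of 3 higher and 1 lower) and of monocytes and neutrophils (19.1 to 19.7 against 42.1 to 49.8, 3 of 6 higher, Ly6g at 0) were also higher. That of B cells (27.7 to 29.1 against 19.9 to 22.0 CPM, 3 of 4 lower and 1 higher) was lower, with a median log2 fold change of -4.06 over its markers. The erythroid sum was also lower (18.2 to 19.1 against 5.49 to 6.90 CPM, 3 of 3 tested lower). In late-stage against early-stage TAMs the melanoma sum went from 1498 to 1625 down to 672 to 1092 CPM (4 of 5 lower) and the fibroblast sum from 795 to 874 down to 390 to 551 (3 of 4 lower). The sums of NK cells (82.6 to 93.2 against 36.1 to 49.5 CPM, 4 of 5 lower) and of monocytes and neutrophils (32.6 to 34.4 against 7.25 to 10.2, 3 of 6 lower) were also lower, and those of B cells (33.6 to 36.9 against 52.0 to 74.0, 2 of 4 higher) and T cells (128 to 136 against 157 to 188, 2 of 6 higher) were higher. The part of other cells in the values of the members was not tested. In bulk samples, fewer cells of a type and less RNA per cell cannot be told apart.

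Promoter windows are shown for 3 of the 5 members whose level passed the test in either comparison, because the results turn on these genes. The windows came from the RefSeq promoter table used here (build GRCm38.p6, 250 bases before to 50 bases after the start site). Windows of Bnip3l and Pik3c3 are not shown. Capitals mark matches to the motifs searched on both strands, which were CACGTG (the E-box core of the CLEAR motif that TFEB binds), TGACNNNGC (the core of the antioxidant response element), GTAAACA (a forkhead core) and CCAAT. The Gabarapl1 window lies at chr6:129532942-129533241 on the plus strand, that of Uvrag at chr7:99141095-99141394 on the minus strand, and Tax1bp1 has a window at each of its 2 starts on the plus strand, the first at chr6:52713479-52713778 and the second at chr6:52713915-52714214.
Gabarapl1: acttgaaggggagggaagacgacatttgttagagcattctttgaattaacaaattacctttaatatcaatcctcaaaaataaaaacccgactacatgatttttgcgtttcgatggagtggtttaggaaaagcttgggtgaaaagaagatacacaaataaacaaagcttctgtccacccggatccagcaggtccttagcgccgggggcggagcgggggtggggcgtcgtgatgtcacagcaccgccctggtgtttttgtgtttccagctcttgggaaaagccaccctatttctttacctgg
Uvrag: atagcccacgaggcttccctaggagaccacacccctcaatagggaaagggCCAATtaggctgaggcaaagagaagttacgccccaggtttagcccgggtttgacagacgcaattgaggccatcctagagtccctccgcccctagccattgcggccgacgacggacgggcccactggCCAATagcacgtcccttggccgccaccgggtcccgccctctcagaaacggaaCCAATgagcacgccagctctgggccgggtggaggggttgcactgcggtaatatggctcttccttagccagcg
Tax1bp1 first start: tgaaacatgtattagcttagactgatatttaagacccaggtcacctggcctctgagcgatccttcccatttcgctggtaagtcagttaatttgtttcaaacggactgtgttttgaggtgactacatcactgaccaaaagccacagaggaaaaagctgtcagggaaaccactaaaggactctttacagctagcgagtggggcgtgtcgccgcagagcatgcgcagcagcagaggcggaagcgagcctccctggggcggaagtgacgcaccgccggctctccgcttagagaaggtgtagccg
Tax1bp1 second start: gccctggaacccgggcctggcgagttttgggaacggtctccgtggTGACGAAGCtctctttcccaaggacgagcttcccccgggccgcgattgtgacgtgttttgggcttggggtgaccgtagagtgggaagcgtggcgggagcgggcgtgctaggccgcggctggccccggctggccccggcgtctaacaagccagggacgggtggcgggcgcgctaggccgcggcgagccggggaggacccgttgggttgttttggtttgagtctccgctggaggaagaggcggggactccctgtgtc

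The Gabarapl1 window held none of the 4 motifs, the Uvrag window held 3 CCAAT matches, and the second Tax1bp1 window held 1 match to the antioxidant response element core. The first Tax1bp1 window, at the gene start of the annotation, held none of the 4 motifs. Of the 39 members, 32 had a promoter entry. CACGTG was in the windows of 4 of them (12.5%: Atg14, Atg3, Atg5 and Atg7), against 8.09% of the 27025 genes in the table, and TGACNNNGC in 4 (12.5%: Atg13, Map1lc3b, Tax1bp1 and Ulk2), against 14% of all genes. CCAAT was in 8 of the 32 (25%, against 41.1%), and GTAAACA in none (against 4.05%). Matches of different motifs were counted separately, overlapping or not, and a match is only a description of the sequence.

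Levels between genes were compared as CPM per kb of exon, which was available for 38 members (Atg9a had no matching annotation). Gabarap was the most abundant member in each of the 4 groups, with group means of 233 (WT), 215 (AMPK-KO), 249 (early-stage) and 208 (late-stage) CPM per kb. Next in WT TAMs came Gabarapl1 at 30.0 and Atg3, a conjugating enzyme, at 27.4 CPM per kb. Gabarap thus stood at 12.9 to 16.1 times the level of Map1lc3b (15.5 to 16.8 CPM per kb), while Map1lc3a was at 6.70 to 7.42. Between the paired starter kinases, Ulk2 was at 8.20 to 8.75 and Ulk1 at 3.80 to 5.10 CPM per kb, a ratio of 1.63 to 2.20. The lowest member per kb in each group was Atg16l2, a paralog of the scaffold ATG16L1, at 1.05 to 1.63 CPM per kb. By CPM alone the lowest in each group was Atg10, at 6.59 to 7.31 CPM, with Atg16l2 at 8.91 to 13.8 CPM.

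**Figure D1:**
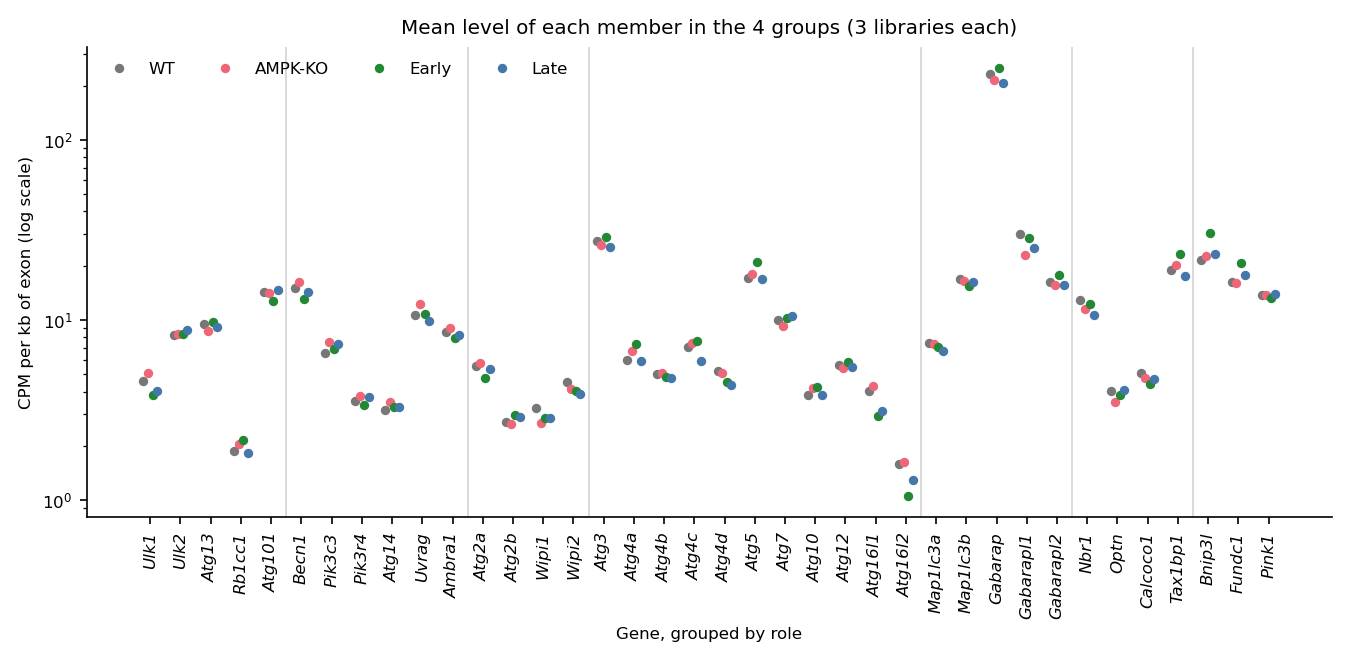
Mean level of 38 members in CPM per kb of exon (log scale) in WT, AMPK-KO, early-stage and late-stage TAMs, as 1 point per group over 3 libraries, with members grouped by role. Gabarap lies above all others at 208 to 249, Atg16l2 lies lowest at 1.05 to 1.63, and the 4 points of a gene lie close together beside the spread between genes.

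The comparison of AMPK-KO with WT TAMs addressed whether loss of AMPK in myeloid cells goes with other transcript levels in TAMs. Most members differed little from their WT level, which holds for this list and not for the further autophagy genes given below. Gabarapl1 fell, Uvrag and Pik3c3 rose, and the other 36 members did not pass the test. These 3 calls are 7.69% of the members, where 21.1% of the 17532 genes tested passed (11.3% higher and 9.78% lower) and 29.1% of the 9584 genes with a mean CPM in the members' range did (15.8% higher and 13.3% lower). DESeq2 called the same 3 genes. At an unadjusted p under 0.05 there were 5 members (Wipi1 and Nbr1 besides the 3), against 32.6% of all genes. No member had an absolute log2 fold change above 1, which 3.34% of all genes tested had together with an adjusted p under 0.05. The libraries of the groups did not overlap for 8 members (20.5%), against 37.2% of all genes and 45.4% of those in the members' CPM range. The members' log2 fold changes ran from -0.39 to 0.22 with a median of 0.02, beside a median of -0.0037 over all genes, and 21 were positive and 18 negative, where 49.5% of all genes had a positive value.

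Gabarapl1 (ENSMUSG00000030161.8, chromosome 6, 129533160 to 129542346, plus strand, GRCm38) was at 58.3, 61.2 and 61.8 CPM in the WT libraries and at 46.8, 48.0 and 43.9 in the AMPK-KO libraries. Every AMPK-KO library lay below every WT library. The means were 60.4 ± 1.88 and 46.2 ± 2.13 CPM (SD, n = 3), a ratio of 0.765 and a log2 fold change of -0.39 (SE 0.06, 95% interval -0.52 to -0.25, adjusted p = 0.00119, edgeR's quasi-likelihood test with Benjamini-Hochberg adjustment). Of its exon bases 28.3% overlap 1700101I11Rik, which was counted at 10 to 108 in the WT and 2 to 17 in the AMPK-KO libraries, against 4198 to 5037 and 3456 to 3849 counts of Gabarapl1. Its window printed above held none of the 4 motifs.

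Gabarap was at 395, 458 and 434 CPM in WT and at 382, 388 and 417 in AMPK-KO TAMs (log2 fold change -0.12, adjusted p = 0.214). Gabarapl2 was at 36.1, 40.1 and 37.8 against 35.6, 37.8 and 36.0 CPM (-0.06, adjusted p = 0.600). The groups overlapped for both. Map1lc3b was at 120, 135 and 124 against 115, 122 and 132 CPM (-0.04, adjusted p = 0.756), and Map1lc3a at 7.39, 9.58 and 9.33 against 8.76, 9.73 and 7.43 CPM (-0.02, adjusted p = 0.939). The sign of Map1lc3b and of Map1lc3a turned when single libraries were left out (Map1lc3a -0.13 to 0.08, Map1lc3b -0.09 to 0.02).

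All 6 genes of the class III PI3K complex had positive log2 fold changes (0.06 to 0.22, median 0.13), also under both other scalings, where 49.5% of all genes were positive in the main fit. Of these 6, 2 passed the test (33.3%), a share near the 29.1% of genes in the members' CPM range (21.1% of all genes). Uvrag (ENSMUSG00000035354.9, chromosome 7, 98885021 to 99141141, minus strand), a Beclin 1 partner that acts in endosome and autophagosome maturation, was at 101, 96.1 and 93.1 CPM in WT and at 112, 117 and 105 in AMPK-KO TAMs. The groups did not overlap, and the means were 96.6 ± 3.74 and 111 ± 5.67 (log2 fold change 0.21, SE 0.06, adjusted p = 0.0281). Pik3c3 (ENSMUSG00000033628.15, chromosome 18, 30272747 to 30348126, plus strand), the lipid kinase itself, was at 27.7, 29.7 and 29.95 against 33.9, 33.2 and 34.3 CPM, with means of 29.1 ± 1.24 and 33.8 ± 0.537 (0.22, SE 0.07, adjusted p = 0.0444). Again no AMPK-KO library reached down to a WT library. The Uvrag call was lost without WT replicate 2 or 3 or AMPK-KO replicate 1 or 2 (adjusted p = 0.0652 to 0.14), and the Pik3c3 call without any single library (0.0714 to 0.124). Becn1, which encodes Beclin 1, was at 107, 105 and 108 against 117, 108 and 119 CPM (0.11, adjusted p = 0.204). Its groups lay side by side without overlap, and 43.9% of its exon bases overlap Cntd1, counted at 8 to 35 in WT and 15 to 40 in AMPK-KO libraries. Of the exon bases of Uvrag 17.6% overlap Gm45187, counted at 0 to 14 in WT and at 5 in AMPK-KO libraries.

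Of the 5 initiation genes none passed the test, and 3 of 5 log2 fold changes were positive (-0.12 to 0.16). Ulk1, the starter kinase, was at 28.3, 31.9 and 28.5 CPM in WT and at 35.9, 31.0 and 32.4 in AMPK-KO TAMs (0.16, adjusted p = 0.206), with overlapping groups. None of the 11 conjugation genes passed (-0.10 to 0.16). Atg5, which is joined to ATG12, was at 38.2, 39.1 and 43.0 against 42.9, 42.4 and 41.4 CPM (0.07, adjusted p = 0.488). The groups did not overlap for Atg3 (-0.08, adjusted p = 0.318) and the protease gene Atg4a (0.16, adjusted p = 0.248). The 5 lipid transfer and scaffold genes did not pass either, the nearest being Wipi1, which encodes a protein that binds the lipid made by the PI3K complex (-0.28, adjusted p = 0.123).

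Of the 4 cargo receptors none passed. Nbr1, a ubiquitin-binding receptor, came nearest with a log2 fold change of -0.17 (adjusted p = 0.0766), and Tax1bp1 had 0.09 (adjusted p = 0.217). The groups did not overlap for these 2 genes. The 3 mitophagy genes had log2 fold changes between -0.02 and 0.07. Pink1 was at 32.2, 38.1 and 40.0 CPM in WT and at 34.6, 37.2 and 38.7 in AMPK-KO TAMs (0.00, adjusted p = 0.990), a difference whose sign turned under upper-quartile scaling (-0.01). Bnip3l was at 78.1, 83.7 and 86.3 against 88.3, 87.1 and 85.4 CPM (0.07, adjusted p = 0.417). For both genes the ranges of the groups overlapped.

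**Figure D2:**
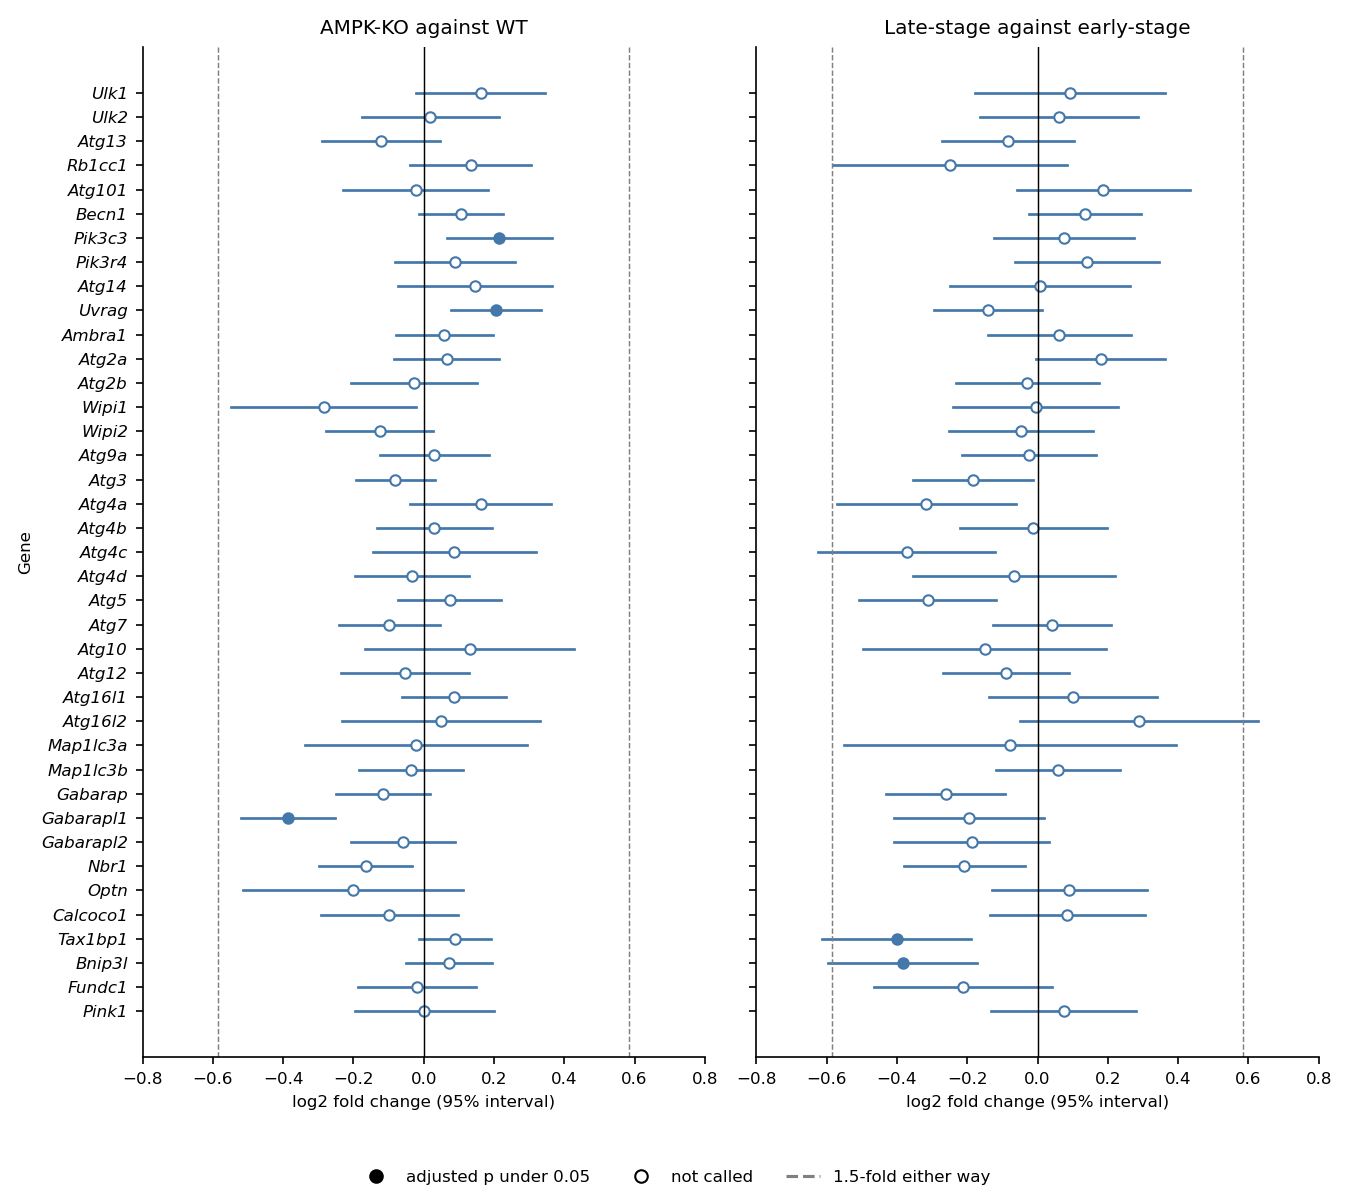
Log2 fold change of each of the 39 members with its 95% interval (horizontal line) in AMPK-KO against WT TAMs (left) and in late-stage against early-stage TAMs (right), 3 libraries against 3 each, with filled points for an adjusted p under 0.05 and dashed lines at a 1.5-fold difference. On the left only Gabarapl1, Uvrag and Pik3c3 are filled and all 39 intervals lie between the dashed lines, and on the right Tax1bp1 and Bnip3l are filled and 35 intervals lie between them.

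The comparison of late-stage with early-stage TAMs addressed how transcript levels in TAMs differ between day 8 and day 15 of tumor growth. Tax1bp1 and Bnip3l fell, and the other 37 members did not pass the test. These 2 calls are 5.13% of the members, where 9.18% of the 17630 genes tested passed (4.31% higher and 4.88% lower) and 13.2% of the 9627 genes in the members' CPM range did (6.52% higher and 6.67% lower). No member was called higher by edgeR's quasi-likelihood test or by DESeq2, and at an unadjusted p under 0.05 there were 0 higher and 8 lower members, against 24.5% of all genes in either direction. DESeq2 called 5 members lower, with Atg4c, Atg5 and Gabarap besides these 2. The shares of all genes given here are those of edgeR's test, so the DESeq2 count cannot be set against them. No absolute log2 fold change was above 1, which 1.87% of all genes had together with an adjusted p under 0.05. The groups did not overlap for 14 members (35.9%), against 31.2% of all genes and 37.8% of those in the members' CPM range, shares near that of the members. The log2 fold changes ran from -0.40 to 0.29 with a median of -0.03, beside 0.0027 over all genes, and 16 were positive and 23 negative, where 50.4% of all genes had a positive value.

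Tax1bp1 (ENSMUSG00000004535.12, chromosome 6, 52713729 to 52766780, plus strand), a receptor for ubiquitinated cargo that also restrains NF-κB signaling, was at 211, 219 and 268 CPM in the early-stage and at 172, 173 and 182 in the late-stage libraries. Early-stage replicate 3 was the highest, and all late-stage libraries lay below all early-stage libraries. The means were 232 ± 30.7 and 176 ± 5.58 CPM, a ratio of 0.757 (log2 fold change -0.40, SE 0.09, 95% interval -0.61 to -0.19, adjusted p = 0.0282, edgeR's quasi-likelihood test with Benjamini-Hochberg adjustment). Bnip3l (ENSMUSG00000022051.15, chromosome 14, 66985239 to 67008877, minus strand), also known as Nix, was at 105, 113 and 133 against 85.5, 89.5 and 94.7 CPM. The groups did not overlap here either, and the means of 117 ± 14.3 and 89.9 ± 4.60 CPM gave a ratio of 0.766 (-0.38, SE 0.10, adjusted p = 0.0346). Both calls were lost without early-stage replicate 2 or without any 1 of the late-stage libraries, with an adjusted p of 0.0735 to 0.125 for Tax1bp1 and 0.0939 to 0.143 for Bnip3l.

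**Figure D3:**
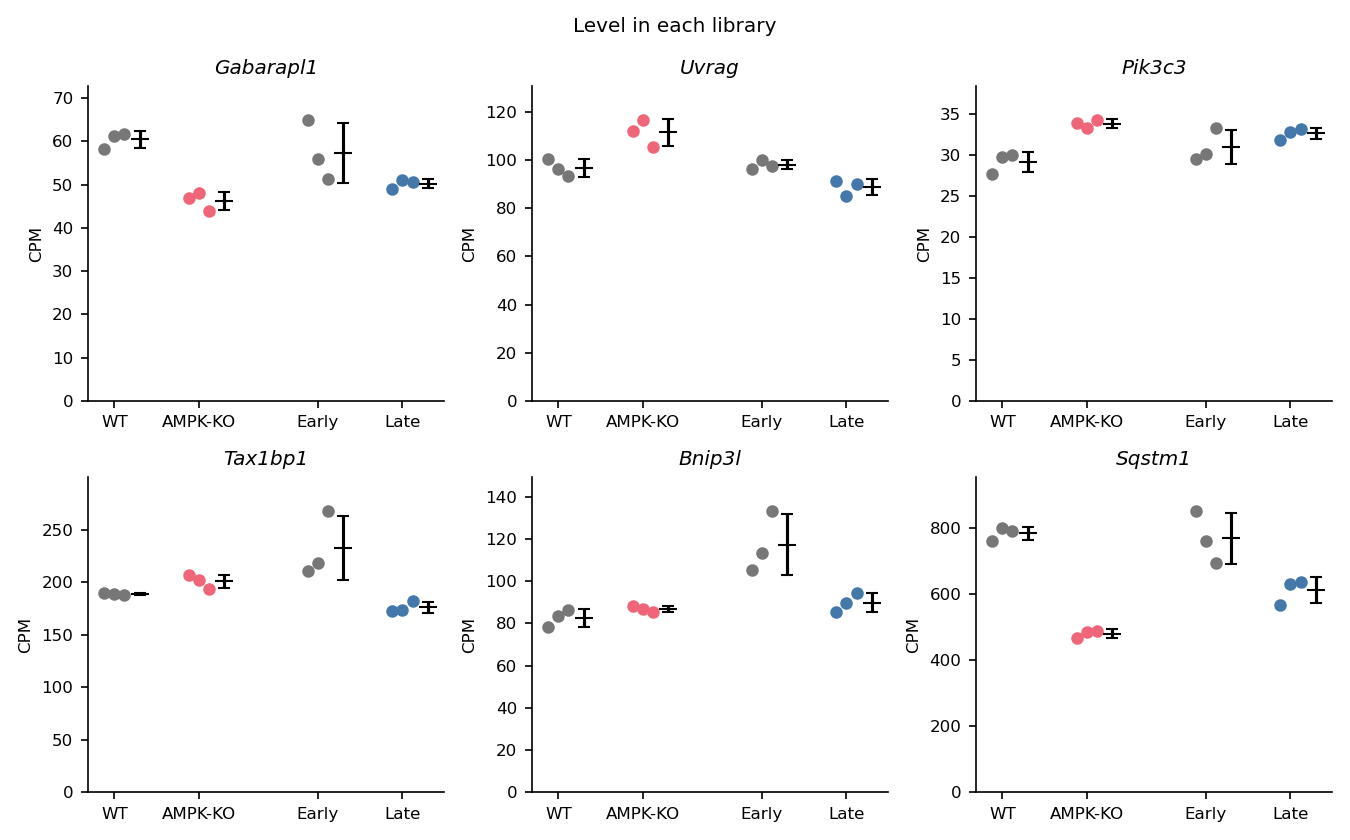
CPM in each of the 12 libraries (points), with the mean ± SD of each group of 3 (bars), for the 5 members called in either comparison and for Sqstm1, a receptor gene that is not a member. Gabarapl1 in AMPK-KO TAMs (43.9 to 48.0) lies below WT TAMs (58.3 to 61.8), and Tax1bp1 and Bnip3l are spread more widely in the early-stage than in the late-stage libraries.

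The other mitophagy genes did not pass the test. Pink1 was at 38.7, 32.3 and 34.9 CPM in early-stage and 36.5, 36.8 and 38.2 in late-stage TAMs (log2 fold change 0.07, adjusted p = 0.679). The outer-membrane receptor gene Fundc1 had -0.21 (adjusted p = 0.289). Among the other receptors Nbr1 was at -0.21 (adjusted p = 0.129), and Optn and Calcoco1 were at 0.09 and 0.08. The groups did not overlap for Nbr1 and, in the other direction, for Optn.

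Of the 11 conjugation genes 8 had negative log2 fold changes, where 50.4% of all genes had a positive value. Of these 8, 4 (Atg3, Atg4a, Atg4c and Atg5) had an unadjusted p under 0.05, against 24.5% of all genes in either direction. None passed after adjustment. Atg5 was at 46.5, 49.4 and 52.0 CPM in early-stage and 36.5, 41.0 and 41.5 in late-stage TAMs (-0.31, adjusted p = 0.0540). Each late-stage library lay below each early-stage library, and the gene passed in 4 of 12 alternative settings, including DESeq2 (adjusted p from 0.0191 to 0.192 over the alternatives). Atg4c and Atg4a, which encode proteases of the conjugation step, were at -0.37 (adjusted p = 0.0720) and -0.32 (adjusted p = 0.119). The groups did not overlap for Atg3, Atg4a and Atg4c either. Atg16l2 had the highest value of the members at 0.29, with an adjusted p of 0.279.

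Gabarap, which did not pass the test, was at 478, 456 and 445 CPM in early-stage and at 356, 379 and 415 in late-stage TAMs (-0.26, adjusted p = 0.0615). Gabarapl1 was at 65.0, 55.8 and 51.4 against 49.0, 51.0 and 50.5 CPM (-0.19, adjusted p = 0.248), and Gabarapl2 at 43.9, 39.3 and 40.3 against 32.1, 37.2 and 39.1 CPM (-0.19, adjusted p = 0.280). For Gabarap, Gabarapl1 and Gabarapl2 every late-stage library lay below every early-stage library. Groups without overlap, in either direction, were found for 31.2% of all genes and 37.8% of those in the members' CPM range. Map1lc3b was at 127, 108 and 115 against 117, 125 and 123 CPM (0.06, adjusted p = 0.710), and Map1lc3a at 10.9, 7.81 and 6.39 against 7.24, 6.81 and 9.69 CPM (-0.08, adjusted p = 0.861, -0.25 to 0.16 with single libraries left out). For Map1lc3b and Map1lc3a the groups overlapped.

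None of the initiation, PI3K complex or lipid transfer genes passed the test with day. Ulk1 was at 23.4, 28.7 and 21.9 CPM in early-stage and 28.5, 25.1 and 25.3 in late-stage TAMs (0.09, adjusted p = 0.699). Becn1 was at 94.0, 91.7 and 90.6 against 107, 96.3 and 100.3 CPM (0.14, adjusted p = 0.281), without overlap. The PI3K genes that passed in AMPK-KO TAMs had log2 fold changes of 0.08 (Pik3c3, adjusted p = 0.659) and -0.14 (Uvrag, adjusted p = 0.242) with day, in libraries that the first comparison does not share. For Uvrag, and for the lipid transfer gene Atg2a (0.18, adjusted p = 0.214), the groups did not overlap.

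The size of the differences was set beside that of other genes. In AMPK-KO against WT TAMs the median absolute log2 fold change was 0.09 over the members, 0.22 over all genes tested and 0.16 over the genes in the members' CPM range. In late-stage against early-stage TAMs it was 0.10, 0.23 and 0.15. The 95% interval lay within a 1.5-fold difference either way for all 39 members in the first comparison, against 51.1% of all genes and 83.7% of those in the members' CPM range. In the second it did for 35 members (89.7%), against 47% and 78.2%, and the exceptions were Atg4c, Atg16l2, Tax1bp1 and Bnip3l.

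**Figure D4:**
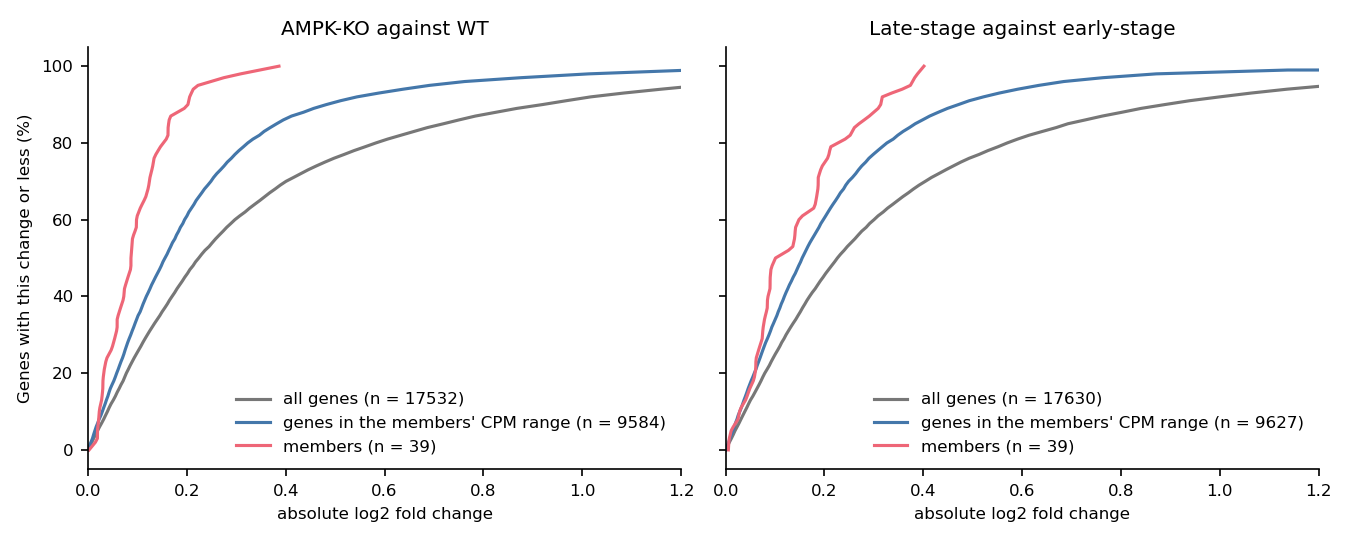
Share of genes (%) whose absolute log2 fold change is at most the value on the horizontal axis, for the 39 members, all genes tested and the genes with a mean CPM in the members' range, in AMPK-KO against WT TAMs (left) and late-stage against early-stage TAMs (right). The members' curve reaches 100% at 0.39 on the left and 0.40 on the right, and lies above the other curves over most of the axis.

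A further 50 autophagy genes that are not among the 39 were followed in the same fits, of which 49 could be tested and Calcoco2 was listed at 0 counts. In AMPK-KO against WT TAMs 2 were higher and 7 lower (18.4%, beside 21.1% of all genes and 29.1% of those in the members' CPM range). Among 14 tested selective receptors and mitophagy adaptors 3 fell. Sqstm1, which encodes p62, the receptor that binds ubiquitin and is itself degraded by autophagy, was at 760, 799.9 and 791 CPM in WT and at 466, 486 and 489.6 in AMPK-KO TAMs (log2 fold change -0.71, SE 0.04, adjusted p = 2.0e-06). The groups lay far apart beside their spread. Ncoa4, the receptor for ferritin, had -0.28 (adjusted p = 0.0123), lost without WT replicate 3 (0.0562), and Nipsnap1 -0.43 (adjusted p = 0.0449), lost in 5 of 12 alternative settings. Among 11 membrane source and regulator genes Rubcnl, which promotes autophagosome maturation, rose (0.60, adjusted p = 7.7e-04), as did Vmp1 (0.18, adjusted p = 0.0320, lost in 7 of 12), and Tecpr1 fell (-0.31, adjusted p = 0.00240). Of 13 fusion genes Plekhm1, Rab7 and Vps18, which act in joining late compartments to lysosomes, fell by 0.27, 0.18 and 0.18 on the log2 scale (adjusted p = 0.0122, 0.0123 and 0.0432). The Vps18 call was lost in 8 of 12 settings and that of Rab7 without WT replicate 3 (adjusted p = 0.0586). None of 6 ER-phagy receptors (Calcoco1, a member, among them) and none of 6 transcription regulators, Tfeb (0.10, adjusted p = 0.368) included, passed edgeR's test. Of these 12, Mitf had an unadjusted p under 0.05 (-0.19, adjusted p = 0.0646) and was called by DESeq2.

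In late-stage against early-stage TAMs 1 of the 49 was higher and 6 lower (14.3%, beside 9.18% of all genes and 13.2% of those in the members' CPM range). Rab7, the small GTPase of late endosomes, fell from a mean of 561 to 425 CPM (-0.40, adjusted p = 0.00524). Bnip3, the paralog of Bnip3l, fell from 223 to 175 CPM (-0.36, adjusted p = 0.0127), and Sqstm1 from 768 to 613 CPM (-0.33, adjusted p = 0.0474). Trp53inp2 (-0.46, adjusted p = 0.0170) and Plekhm1 (-0.28, adjusted p = 0.0291) also fell, while Vps16 rose (0.35, adjusted p = 0.0364). None of the 6 ER-phagy receptors passed edgeR's test, where Sec62 had an unadjusted p under 0.05 (-0.32, adjusted p = 0.0829) and was called by DESeq2. Mitf, a transcription regulator of lysosomal genes and of pigment cells, fell from 124 to 68.8 CPM (-0.86, adjusted p = 7.4e-04), with the melanoma marker sums given above moving the same way, and their part in it was not tested. Over the alternative settings the calls of Rab7 and Mitf held in 12 of 12, while those of Sqstm1, Vps16, Plekhm1, Bnip3 and Trp53inp2 were lost in 7, 6, 5, 4 and 4.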

How the data were processed

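Gene counts of sorted TAMs were analysed in 12 samples. Reads had been aligned with HISAT2 and summarised with featureCounts, and the authors deposited the raw counts as 1 table per comparison. The submitters' processing notes give the builds mm10 and GRCm38, where the study's methods write GRCh38. The handling of strand and of multiply mapped reads is not given in the sources used here, and the notes also list FastQC and DESeq2. Coordinates and exon lengths came from GENCODE M21 (54349 of 55401 identifiers matched). Each table was filtered (filterByExpr), scaled by TMM and tested without covariates by the quasi-likelihood test of edgeR 4.0.16 in R 4.3.3, with Benjamini-Hochberg adjustment over all genes tested and a threshold of 0.05. CPM used TMM-scaled library sizes.

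Members, lists and tests were chosen with earlier results of these data known. Called members and a fixed set (Ulk1, Becn1, Atg5, Pink1 and Bnip3l among them) were given by sample, and list genes were named where called, at most 5 per list. Summaries of 1 of the groups of members are not reported here. The genes in the members' CPM range were added as a background after seeing the data. On simulated counts, edgeR recovered 50.5% (AMPK-KO) and 27.4% (late-stage) of genes changed by 0.5 on the log2 scale. The changed genes were drawn from all genes tested, at any level, so these shares need not hold for the members. Alternatives were RLE and upper-quartile scaling, DESeq2 1.42.0, other filters, the replicate block and leaving out each library.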

Additional observations from a re-analysis of the deposited data

How the results depend on the processing

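Each count was recomputed under 12 alternatives, for which the shares of all genes called are not given here. In AMPK-KO against WT TAMs, the 2 members called higher became 1 under upper-quartile scaling, 0 without a filter and 0 to 1 with single libraries left out, and the 1 called lower ranged from 1 to 2. Gabarapl1 was called in all 12 (log2 fold change -0.41 to -0.35). Of the other autophagy genes, the 2 called higher became 1 without a filter and 1 in each leave-one-out fit, and the 7 lower ranged from 3 to 9. In late-stage against early-stage TAMs, the 2 members called lower became 5 with DESeq2 (Atg4c, Atg5, Gabarap, Tax1bp1 and Bnip3l), 0 without a filter and 0 to 5 with single libraries left out. The 1 other gene called higher became 2 with DESeq2, 2 with at least 10 counts in every library and 0 without a filter, with a leave-one-out range of 0 to 4, and the 6 lower ranged from 2 to 10. The members' median of -0.03 ranged from -0.0464 to 0.00228 there. The cause of these shifts was not tested, except that leaving out a library leaves fewer samples. Signs turned for Pink1 (AMPK-KO) under upper-quartile scaling (-0.0114), without a filter (-0.00592) and in the leave-one-out range (-0.0868 to 0.0632), and in the leave-one-out ranges of Map1lc3a (-0.13 to 0.0760, and -0.25 to 0.16 with stage) and Map1lc3b (-0.0934 to 0.0153).

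Samples with the same replicate number did not deviate together (correlations of -0.0039 to 0.0423 and 0.0132 to 0.0255), so no effect shared by replicate number was visible. The labels do not say whether the numbers pair samples, and these correlations cannot settle it. With the replicate number as a block, AMPK-KO TAMs had 1 member higher and 1 lower, and late-stage TAMs had 2 lower.

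The lowest count of a member was 432. With 3 libraries a group, differences near 0.5 on the log2 scale were often missed in simulated data. That simulation drew its changed genes from all genes tested, and recovery among genes at the members' levels was not measured. Exon overlaps, unknown strandedness, sex in the stage comparison and low Lyz2 in WT libraries limit single values.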

Other observations

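The 2 comparisons share no library, and the members' log2 fold changes were positive in both for 11 members and negative in both for 13. They were positive in AMPK-KO against WT and negative in late-stage against early-stage TAMs for 10, and the reverse for 5. WT and late-stage TAMs were both taken at day 15 but stand in tables normalized separately. They also differ in Y-linked counts (9229 to 11360 in WT, 0 to 4 in late-stage libraries) and in Lyz2 counts (671 to 975 against 88212 to 93224). Their levels are therefore given side by side without a test. Gabarapl1 was at 60.4 CPM in WT and 50.2 in late-stage TAMs, and Tax1bp1 at 189 and 176 CPM.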
